A study of Arabidopsis thaliana with 5 samples.

Results

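Cytochromes P450 were followed in Arabidopsis thaliana roots as the probe sets whose single gene symbol in the platform annotation has the form of a P450 name, CYP with a family number, a subfamily letter and a member number. The rule found 22 probe sets for 22 genes, out of 13513 probe sets with 1 gene. CYP71B accounted for 18 of them, and the other 4 were CYP51G2, CYP78A9, CYP79A2 and CYP84A4. RefSeq lists 225 genes with symbols of this form, so the families are covered very unevenly. A further 2 probe sets that carry a P450 name share it with another gene and were left out.

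Affymetrix ATH1 arrays measured 2 groups of Columbia roots. Seedlings of both groups grew for 5 days at pH 5.7 and then spent 24 h at pH 4.6. Sorted protoplasts (3 samples) were root cells freed from their walls and passed through a sorter, with RNA from about 50000 cells in each sample. Whole roots (2 samples) were intact, with 1 µg of total RNA labelled in each. No sample at pH 5.7 was analysed here, so no difference below is one of pH. The groups differ in preparation and also in the RNA taken for labelling, and these cannot be told apart. The labels name no sorted cell population beyond cells of the whole root. The question is how far P450 transcript levels measured on protoplasts stand for those of the intact root.

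P450 enzymes are haem proteins that insert an oxygen atom into small molecules, and in plants most sit in the membrane of the endoplasmic reticulum and take electrons from a P450 reductase. They are grouped by sequence into numbered families and into larger clans. Clan 71 is the largest in plants and works mainly on amino acid derivatives, phenolics and terpenoids used in defence, while the CYP51 clan acts on sterols. CYP71B is a large, tandemly repeated Arabidopsis subfamily whose best known member, PAD3, completes the synthesis of the antimicrobial compound camalexin. Here 21 of the 22 members belonged to clan 71 and 1 to clan 51.

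Values are MAS5 signals on a linear scale, and fold changes are log2 values for sorted protoplasts minus whole roots. Arrays correlated at r between 0.954 and 0.987 within the sorted group, at 0.980 between the whole roots, and at 0.671 to 0.696 across groups. Sorted replicate 1 stood furthest from its group, with r of 0.954 and 0.956 to the others. Control probe sets at both ends of the actin transcript gave a 3′ over 5′ ratio of 19.8 to 29.3 in the sorted samples and 3.08 to 3.29 in whole roots. Those of GAPDH gave 5.22 to 9.18 against 0.788 to 0.969, and those of ubiquitin 2.57 to 2.90 against 1.10 to 1.52. Fold changes were higher for longer genes across the 7334 tested probe sets of known length (Spearman's rho 0.320, a description across genes). Members were 1600 to 2578 bp long (median 1896 bp, against 2384 bp for all tested). The part of transcript integrity in the P450 values was not tested.

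Of the 22 members, 8 were lower in sorted protoplasts, 3 were higher and 11 did not pass when all 22746 probe sets were fitted with no filter on dim signals (limma, Benjamini-Hochberg adjusted p under 0.05). All 8 lower genes were CYP71B, and all 3 higher ones lay outside it. Among all probe sets in that fit, 19.7% were lower and 20.9% were higher. The median log2 fold change was -0.56 over the 22 members and -0.87 over the 18 CYP71B genes, beside -0.02 over all probe sets. Without whole-root replicate 2 the count of lower members dropped to 5. In bulk samples such as these, fewer cells of a type and less RNA per cell cannot be told apart.

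The main test left out the 40% of probe sets with the lowest mean, which lay below a signal of 43.3. It kept 5 members, of which 4 were lower (CYP71B23, CYP71B26, CYP71B29 and CYP71B6) and 1 was higher (CYP84A4). Among all 13647 probe sets tested this way, 26.5% were lower and 34.1% higher, with a median log2 fold change of 0.15. In 3 of the 5 members both group means exceeded 43.3, while CYP71B29 was kept through its whole-root signals and CYP84A4 through its sorted signals. Nothing is therefore read from the share of these 5 that passed, and the counts without a filter cover every member. CYP71B37 fell just outside the bound, with a geometric mean of 42.2 over the 5 arrays, and CYP71B29 lay just inside it at 56.0.

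**Figure D1:**
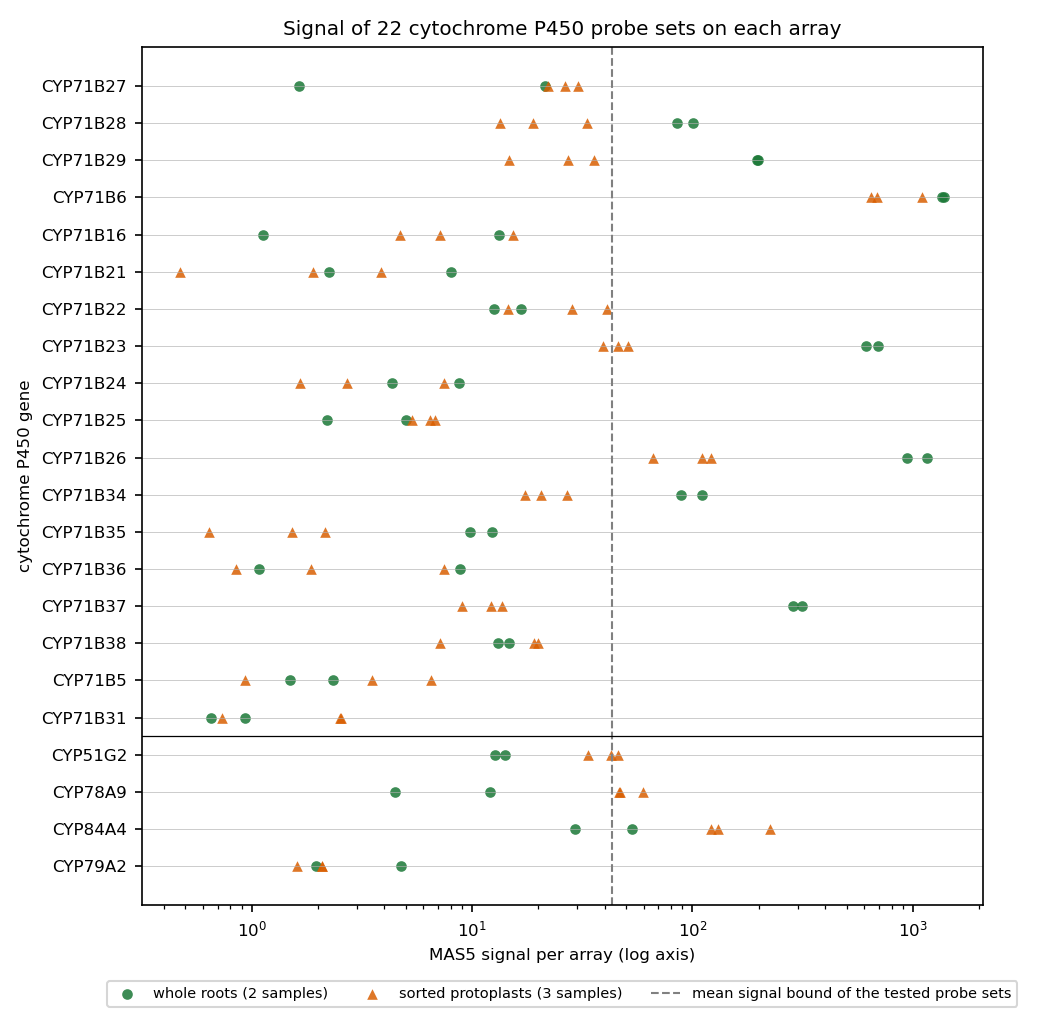
MAS5 signal on a log axis for each of the 22 P450 probe sets, with 1 point per array (triangles, 3 sorted protoplast samples; circles, 2 whole-root samples) and a dashed line at 43.3. CYP71B23, CYP71B26, CYP71B29, CYP71B34 and CYP71B37 show whole-root points far to the right of the sorted points, and most other CYP71B genes lie left of the line in both groups.

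The longest run of CYP71B genes lies on chromosome 3, where RefSeq (TAIR10.1) lists 18 of them from CYP71B16 to CYP71B37 with 7 other genes in between. The array measured 11 of these singly. Without a filter 5 of the 11 fell (CYP71B23, CYP71B26, CYP71B34, CYP71B35 and CYP71B37), 0 rose and 6 did not pass. In that fit 19.7% of all probe sets were lower and 20.9% higher. Substrates of these enzymes in the plant are not stated here.

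CYP71B37 (AT3G26330), the last gene of the run, fell to very dim sorted signals. Its signal was 314 and 286 in whole roots and 13.7, 12.1 and 9.04 in sorted protoplasts. Every sorted sample was thus far below both whole-root samples. The means were 299.6 ± 19.9 (SD, n = 2) and 11.6 ± 2.37 (SD, n = 3), and the log2 fold change was -4.71 (SE 0.339, adjusted p = 4.31e-05 without a filter). Because the sorted mean is dim, this fold is imprecise. Set against the bound of 43.3 the whole-root mean was 6.91-fold higher, less than the fold between the group means of CYP71B23 or CYP71B26.

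CYP71B23 (AT3G26210) read 696 and 612 in whole roots against 50.8, 39.4 and 46.0 in sorted protoplasts. The means differed 14.4-fold, 653.8 ± 59.5 (SD, n = 2) and 45.4 ± 5.74 (SD, n = 3). Its log2 fold change of -3.85 (SE 0.198, limma adjusted p = 9.82e-06) had the smallest adjusted p of the 5 members in the main test. CYP71B26 (AT3G26290) read 941 and 1160 in whole roots against 66.3, 111 and 122 in sorted protoplasts. Sorted replicate 1 was the lowest of its group, yet all 3 stayed well under the whole roots. The log2 fold change was -3.44 (SE 0.274, limma adjusted p = 4.79e-05), and in this gene both groups were clearly brighter than the bound.

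CYP71B34 (AT3G26300), next in the run but for a pseudogene, read 110 and 88.4 in whole roots against 27.0, 20.6 and 17.4 in sorted protoplasts. The groups did not overlap, and the log2 fold change was -2.21 (SE 0.357, adjusted p = 0.00167 without a filter). The sorted mean was dim, and the whole-root mean was 2.29-fold above 43.3. CYP71B35 (AT3G26310) was dim in every sample, at 12.3 and 9.81 in whole roots against 1.52, 2.15 and 0.643 in sorted protoplasts. It passed without a filter (log2 fold change -3.10, SE 0.890, adjusted p = 0.0245). That call was lost without sorted replicate 3 (adjusted p = 0.0591), without whole-root replicate 1 (0.119) and without whole-root replicate 2 (0.0895), and both group means were under 43.3, so no fold against the bound is given.

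Along the run the first 3 measured genes did not pass, CYP71B26, CYP71B34 and CYP71B35 fell side by side among the measured genes, and CYP71B23 and CYP71B37 fell singly. CYP71B22, just before CYP71B23, read 14.6, 28.4 and 40.9 in sorted protoplasts and 16.7 and 12.6 in whole roots, and did not pass. CYP71B24, the next measured gene after CYP71B23, did not pass either. CYP71B36 lies between CYP71B35 and CYP71B37, and read 1.85, 0.848 and 7.44 in sorted protoplasts and 1.08 and 8.79 in whole roots, which overlap. Neighbours that did not pass were dim in both groups, and a fall or its absence cannot be read from them. The 10 genes to each side of the run held 7 single-gene probe sets. Of these 1 was lower and 1 higher without a filter (19.7% and 20.9% of all probe sets).

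**Figure D2:**
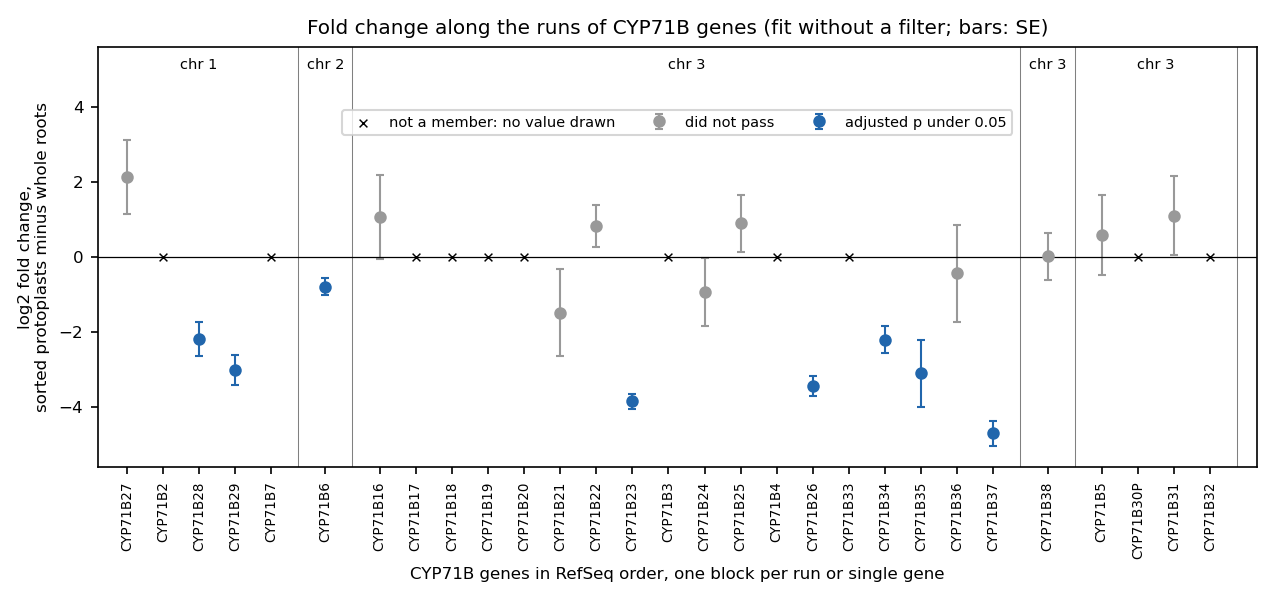
Log2 fold change (sorted protoplasts minus whole roots, fit without a filter, bars ± SE) for CYP71B genes in RefSeq gene order, with 1 block for each run or single gene and crosses at 0 marking genes that are no members. Genes that passed lie between -4.71 and -0.80, with unpassed genes among them, and no CYP71B gene passed above 0.

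A shorter run on chromosome 1 holds 5 CYP71B genes, of which 3 were measured singly. CYP71B29 (AT1G13100) read 198 and 196 in whole roots against 35.6, 14.7 and 27.1 in sorted protoplasts. The whole roots were nearly equal and all sorted samples were far below them. Its log2 fold change was -3.02 (SE 0.401, limma adjusted p = 0.000647 without a filter), and its whole-root mean was 4.54-fold above the bound of 43.3, under which the sorted mean lay. CYP71B28 (AT1G13090), beside it, read 84.7 and 100.4 in whole roots against 33.1, 13.4 and 18.9 in sorted protoplasts. The groups did not overlap, with a log2 fold change of -2.18 (SE 0.448, adjusted p = 0.00541 without a filter), and the whole-root mean was 2.13-fold above 43.3 with a dim sorted mean. It did not pass when whole-root replicate 2 was left out (adjusted p = 0.0568).

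The third measured gene of that run, CYP71B27 (AT1G13070), is a transcribed pseudogene in RefSeq and went the other way. It read 26.4, 30.1 and 22.2 in sorted protoplasts and 1.63 and 21.3 in whole roots. All sorted values were above both whole-root values, which differed widely from each other, and the gene did not pass (log2 fold change 2.14, SE 0.990, adjusted p = 0.124). Without whole-root replicate 2 it passed as higher (log2 fold change 4.00, adjusted p = 0.00803), and without whole-root replicate 1 the log2 fold change was 0.29 (adjusted p = 0.716), so its value rests on the whole-root samples. The 10 genes to each side of the chromosome 1 run held 8 single-gene probe sets. Of these 1 was lower and 4 higher without a filter (19.7% and 20.9% of all probe sets).

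CYP71B6 (AT2G24180) on chromosome 2 is the measured CYP71B gene with a well described enzyme: it turns indole-3-acetonitrile into indole-3-carboxylic acid and so belongs to indole defence metabolism. Its signal was bright in all samples, at 1390 and 1354 in whole roots and 686, 648 and 1099 in sorted protoplasts. Sorted replicate 3 came close to the whole roots, but the groups did not overlap. The log2 fold change of -0.80 (SE 0.231, limma adjusted p = 0.0179) was the smallest among the 8 falls. The call was lost with each array centred on its median (-0.56, adjusted p = 0.0707), without whole-root replicate 1 (0.103) and without whole-root replicate 2 (0.0914). In the fit without a filter (adjusted p = 0.0237) it was lost under 6 of 11 alternatives, which were these 3, removal of the length trend (0.0657), no mean-variance trend (0.105) and leaving out sorted replicate 2 (0.0718).

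The remaining CYP71B genes were dim throughout. The 10 that did not pass without a filter had signals between 0.472 and 40.9, log2 fold changes between -1.48 and 2.14, and adjusted p between 0.124 and 0.988. They were CYP71B5, CYP71B16, CYP71B21, CYP71B22, CYP71B24, CYP71B25, CYP71B27, CYP71B31, CYP71B36 and CYP71B38. In 8 of them the groups overlapped, while CYP71B25 and CYP71B27 had every sorted sample above both whole roots. Their 95% intervals were wide: for 7 of the 10 the interval held both -1 and 1 on the log2 scale, so an equal level in both preparations is not shown.

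Over all 18 CYP71B genes, every sorted value lay below every whole-root value in 8 and above in 2. Across all probe sets, 30.9% had every sorted value below, and 30.9% had every sorted value above. In the 3 CYP71B genes with both group means above 43.3, the fitted falls were 1.74-fold for CYP71B6, 10.8-fold for CYP71B26 and 14.4-fold for CYP71B23. Differences between these folds were not tested. The sorted mean of CYP71B23, 45.4, lay close to that bound, and its sorted replicate 2 was under it at 39.4.

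The 4 members outside CYP71B are single representatives of their families. CYP84A4 (AT5G04330), a relative of the lignin enzyme ferulate 5-hydroxylase that takes part in making arabidopyrones, was higher in sorted protoplasts. It read 224, 131 and 122 there against 29.4 and 53.2 in whole roots, without overlap, although sorted replicate 1 stood well above the other sorted samples. The log2 fold change was 1.95 (SE 0.363, limma adjusted p = 0.00340 without a filter), and 1.67 without sorted replicate 1. Against the bound of 43.3, which exceeds the whole-root mean of 41.3 ± 16.8 (SD, n = 2), the sorted mean was 3.66-fold higher.

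CYP78A9 (AT3G61880), known for promoting growth of floral organs, fruits and seeds, read 46.7, 59.7 and 46.6 in sorted protoplasts and 4.49 and 12.0 in whole roots. The sorted samples were all higher, with a log2 fold change of 2.79 (SE 0.529, adjusted p = 0.00373 without a filter). Its sorted mean was 1.18-fold above 43.3, so little of this fold can be counted on. The fitted 6.90-fold became 4.22-fold without whole-root replicate 1 and 11.3-fold without whole-root replicate 2. CYP51G2 (AT2G17330), a transcribed pseudogene in RefSeq of the sterol demethylase family CYP51, read 33.6, 42.7 and 45.8 against 12.7 and 14.2. The groups did not overlap (log2 fold change 1.59, SE 0.404, adjusted p = 0.0145 without a filter), but both means were under 43.3. The call was lost without sorted replicate 2 (adjusted p = 0.0560), sorted replicate 3 (0.0641) or whole-root replicate 1 (0.0590).

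CYP79A2 (AT5G05260), which makes phenylacetaldoxime from phenylalanine at the start of benzylglucosinolate synthesis, was near the bottom of the scale in all samples. It read 2.08, 1.61 and 2.09 in sorted protoplasts and 1.95 and 4.78 in whole roots, and did not pass (log2 fold change -0.67, 95% interval -2.73 to 1.38, adjusted p = 0.596). Sterol, growth, aldoxime and phenolic P450s are thus represented by 1 gene each, and no statement on their families can be drawn from them.

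**Figure D3:**
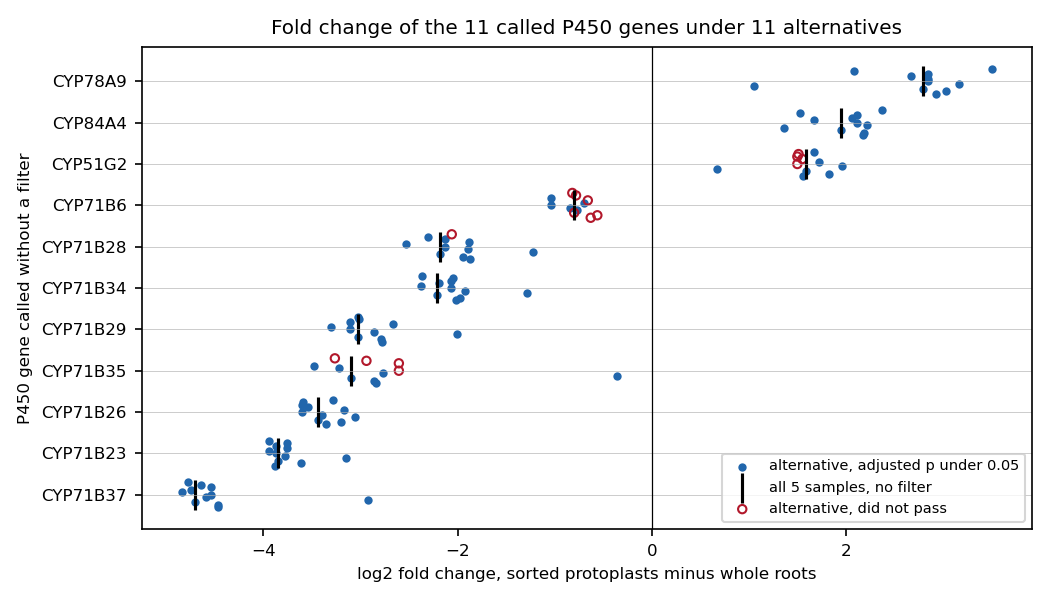
Log2 fold change of the 11 P450 genes that passed without a filter: black bars give the fit on all 5 samples, and points give 11 alternatives (filled, adjusted p under 0.05; open, did not pass). In all 11 genes every point keeps the sign of the bar, and CYP71B6, CYP71B35 and CYP51G2 have several open points.

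Of the 11 genes called without a filter, 7 kept their call under all 11 alternatives tried beside it: CYP71B23, CYP71B26, CYP71B29, CYP71B34, CYP71B37, CYP78A9 and CYP84A4. Adding 32 to each signal before taking logs shrank the fold of the dim ones most. CYP71B37 then had a log2 fold change of -2.93 and CYP71B35 one of -0.36, while CYP71B26 was still at -3.06.

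Enzymes that work beside P450s gave few values. A list of 56 other P450 genes of known role, under any symbol, covered for example lignin, brassinosteroid, jasmonate and glucosinolate synthesis. It held none of the 22 members, and 0 of its genes had a single-gene probe set in the annotation used here. The same held for 10 electron donors and scaffold proteins, 3 suberin enzymes and 3 triterpene cyclases. The phenylpropanoid acyltransferase HCT, 1 of 12 listed enzymes of that pathway, did not pass (log2 fold change 0.43, SE 0.230, limma adjusted p = 0.136). It read 3310, 2055 and 2132 in sorted protoplasts and 1589 and 2052 in whole roots, and it passed as higher once arrays were centred on their medians. UGT74B1, which glucosylates glucosinolate precursors and was 1 of 6 listed indole and glucosinolate enzymes, did not pass either (0.31, SE 0.253, adjusted p = 0.311), at 978, 562 and 573 against 590 and 508.

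Marker genes of green shoot tissue, of root cell types and of heat shock were read beside the P450s. Of 3 markers of green shoot tissue 2 had values, RCA of Rubisco activation and LHCB4.1 of light harvesting, and both fell (log2 fold change -3.32 and -3.002, limma adjusted p = 2.49e-05 and 2.54e-05). Their summed signal was 92.6 to 112 in sorted protoplasts and 802 to 971 in whole roots. The sorted means, 45.5 for RCA and 54.2 for LHCB4.1, lay close to the bound of 43.3. In the main test 26.5% of all probe sets were lower. Of 18 root cell type markers 6 had values and 5 were tested: ACR4 of the stem cell niche rose, the cortex gene AT1G62510 fell, and 3 did not pass. Those 3 were GSO1 (log2 fold change 0.67), EXPA7 (-0.79) and the root cap gene AT1G65570 (0.81). The other cortex marker, CO2, was too dim for the main test, with means of 30.1 in sorted protoplasts and 30.8 in whole roots. ACR4 and AT1G62510 were each under 43.3 in the group where they were lower. The mean of the other group was 1.83-fold above that bound for ACR4 and 1.76-fold for AT1G62510. The summed signal of all 6 root markers with values was 750 to 1476 in sorted protoplasts and 652 to 733 in whole roots. The 3 measured heat shock genes of 5 listed were higher, in a test where 34.1% of probe sets were. Only ROF2 had both means above 43.3 (log2 fold change 2.65, limma adjusted p = 2.75e-05). AT1G53540 and AT5G37670 were kept through their sorted signals, with sorted means 4.90-fold and 2.44-fold above the bound. Without whole-root replicate 2, or with the length trend removed, 0 of the 5 tested root markers were lower. Without sorted replicate 3, 2 were lower, and without sorted replicate 2 or with median centring, 2 were higher. With the replicate block 2 were higher and 2 lower, and the filter at 60% left 1 of them to test, which did not pass. Whether the shifts of these marker and heat shock genes bear on the P450 values was not tested.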

How the data were processed

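The intensity values used are linear MAS5 signals that the authors deposited, 1 per probe set and array, MAS5 being named per the submitters' processing notes (version not given in the sources used here). The 2% trimmed mean was 250.0 on all 5 arrays. The table has no detection calls. Log2 values were fitted with limma 3.58.1 (R 4.3.3; lmFit, eBayes with a mean-variance trend, group as the only factor) across 13647 probe sets, after leaving out 64 control probe sets and the 40% with the lowest mean, with Benjamini-Hochberg adjustment over all tested. On simulated data the fit recovered 90 of 100 log2 changes of 1 and 100 of 100 changes of 2, with 15 false calls. Far fewer of the 13647 probe sets were changed there than passed in the data. A fit with no filter covered all 22746. Each sample was also left out in turn, and the fit was repeated with the gene length trend removed, a replicate block, no trend, a filter at 60%, a pseudocount of 32, quantile normalization or centring on medians; their combinations with no filter were chosen after seeing the data. Whether replicates were separate cultures is not in the labels. The p-values thus reflect only how far these samples differ, possibly for technical reasons, and 3 against 2 arrays limit the precision.

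Genes were named from the platform annotation, and gene order, biotype and length came from RefSeq TAIR10.1. Coordinates are not printed, as the files name no genome build. The members and lists were chosen with earlier results of these data known. Named were the largest rises and falls past the threshold without overlap, every tested CYP71B gene, the brightest probe set of a family with at least 3, and up to 2 genes per list with the smallest adjusted p. All other members are given to account for each.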

Additional observations from a re-analysis of the deposited data

How the results depend on the processing

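With no filter, the main test's counts went from 4 lower and 1 higher P450 genes to 8 and 3, and the 4 lower CYP71B genes to 8. The medians went from -3.02 to -0.56 (P450) and from -3.23 to -0.87 (CYP71B). The main medians, and those with 1 sample left out, cover only the 5 P450 and 4 CYP71B genes kept by the filter. Among these, CYP71B29 and CYP84A4 were kept through their brighter group. With the filter at 60% only 2 members were tested, so the counts were 2 and 0, with 2 lower CYP71B genes, and both medians -2.12. A pseudocount of 32 gave medians of -2.00 and -2.53, as its construction shrinks folds of dim probe sets. Median centring moved the median of all tested probe sets from 0.15 to 0.39. Leaving out 1 sample gave 3 to 4 lower and 1 higher members, 3 to 4 lower CYP71B genes, and medians of -3.17 to -2.66 and -3.36 to -3.10. Combined with no filter, a choice made after seeing the data, it gave 5 to 8 lower and 2 to 4 higher members, and 5 to 8 lower and 0 to 1 higher CYP71B genes. There, values of 4 genes that had not passed changed sign: CYP71B16 (-0.73 to 2.83), CYP71B36 (-1.95 to 1.07), CYP71B38 (-0.24 to 0.50) and CYP71B5 (-0.044 to 1.36). Deviations of same-numbered samples did not correlate (r = 0.00569 and 0.00134). Deviations of the 2 whole-root samples mirror each other and sorted replicate 3 has no partner, so whether the numbers pair samples cannot be decided. With the replicate number as a block the counts were again 4 lower and 1 higher, and without a filter the calls of CYP51G2 (adjusted p = 0.0735) and CYP71B35 (0.110) were lost. With the block, sorted replicate 3 had no whole-root sample to be compared with. Both genes then had the same log2 fold changes as in the fit without that sample. Their calls were also lost in that fit (limma adjusted p = 0.0641 for CYP51G2 and 0.0591 for CYP71B35). Nothing further about these losses was tested. The number of arrays and the dimness of 13 of 22 members, with both means under 43.3, limit what can be seen.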
